A study of Mus musculus with 5 samples.

Results

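The genes described here are 41 listed enzymes of xenobiotic metabolism, glutathione chemistry and antioxidant defence, with the transcription factor gene Nfe2l2. They were chosen by name, as cytochrome P450, glutathione, sulfotransferase and NRF2 target genes, and every probe set annotated with that one symbol was taken. Of the 41 listed genes, 40 were measured, by 68 probe sets, among 18193 genes and 45101 probe sets on the array. Por, which encodes the reductase that supplies electrons to the P450s, had no probe set annotated with its symbol alone.

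The arrays were hybridised with RNA from whole esophagus of transgenic FVB/N mice aged 3 to 4 months. All animals carried the same pair of transgenes, CC10-rtTA and tetO-IL-13, in which the doxycycline-dependent activator rtTA is driven by the CC10 promoter and is designed to switch on the cytokine IL-13. The Dox group had 3 arrays from mice fed doxycycline, and the NoDox group had 2 arrays from mice of the same genotype on a regular diet. CC10 is the secretory protein of airway club cells, so the promoter is one of the airway rather than of squamous epithelium. Doxycycline-fed mice without the transgenes are not analysed here, so effects of the drug in the diet and of the transgene cannot be told apart. Whether each array came from its own animal is not given in the labels, and p-values therefore measure the spread between these arrays, which may be technical.

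Cytochrome P450 and flavin-containing monooxygenases place an oxygen on lipophilic compounds, and sulfotransferases, glutathione transferases and carbonyl reductases then make the products more soluble or less reactive. Glutathione is built by glutamate-cysteine ligase and glutathione synthetase and is kept reduced by glutathione reductase. NRF2, the product of Nfe2l2, binds antioxidant response elements of many of these genes when electrophiles or oxidants inactivate its inhibitor KEAP1. The esophageal lining meets swallowed compounds directly.

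Among the 40 measured members, 10 were lower and 1 was higher in Dox than in NoDox esophagus. Lower were the sulfotransferase Sult1d1, the monooxygenase Fmo2, the P450 Cyp3a13, the glutathione transferases Gstm2, Gstm3, Gstm5, Gstm6 and Mgst3, and the NRF2 targets Txnrd1 and Hmox1. Higher was Cyp2b10 alone. These calls come from limma with a two-sided test, adjusted by Benjamini-Hochberg over all 18193 genes at a threshold of 0.05. By the same test 1.17% of all genes were lower and 1.35% were higher. With each array centred on its median, 7 members and 146 genes were lower and 1 member and 292 genes were higher, in place of 212 lower and 246 higher genes. Of the 10 lower members, 6 were at least 2-fold lower, which held for 0.528% of all genes.

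The members lay on the low side beyond those that passed the test. A negative log2 fold change was found for 35 members, or 87.5%, against 57.5% of all genes, and for 30 members with each array centred on its median. In 25 members, or 62.5%, all 3 Dox arrays were below both NoDox arrays, against 21.8% of all genes. In 1 member, Cyp2b10, all Dox arrays were above both NoDox arrays (13.8% of all genes), and in 14 members the groups overlapped. The median log2 fold change was -0.46 over the members and -0.08 over all genes. Members were brighter, at a median signal percentile of 91.3 against 64.6. Of the marker lists given below, 86.7% of squamous and 100% of skeletal and smooth muscle genes were negative, against 0% of macrophage and alveolar genes. All Dox arrays were below both NoDox arrays in 46.7%, 64.3%, 75%, 0% and 0% of these, in that order. A low shift was thus not particular to the members. These shares describe genes that were listed with earlier results of these arrays known. In whole tissue, fewer cells of a type and less RNA per cell cannot be told apart.

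**Figure D1:**
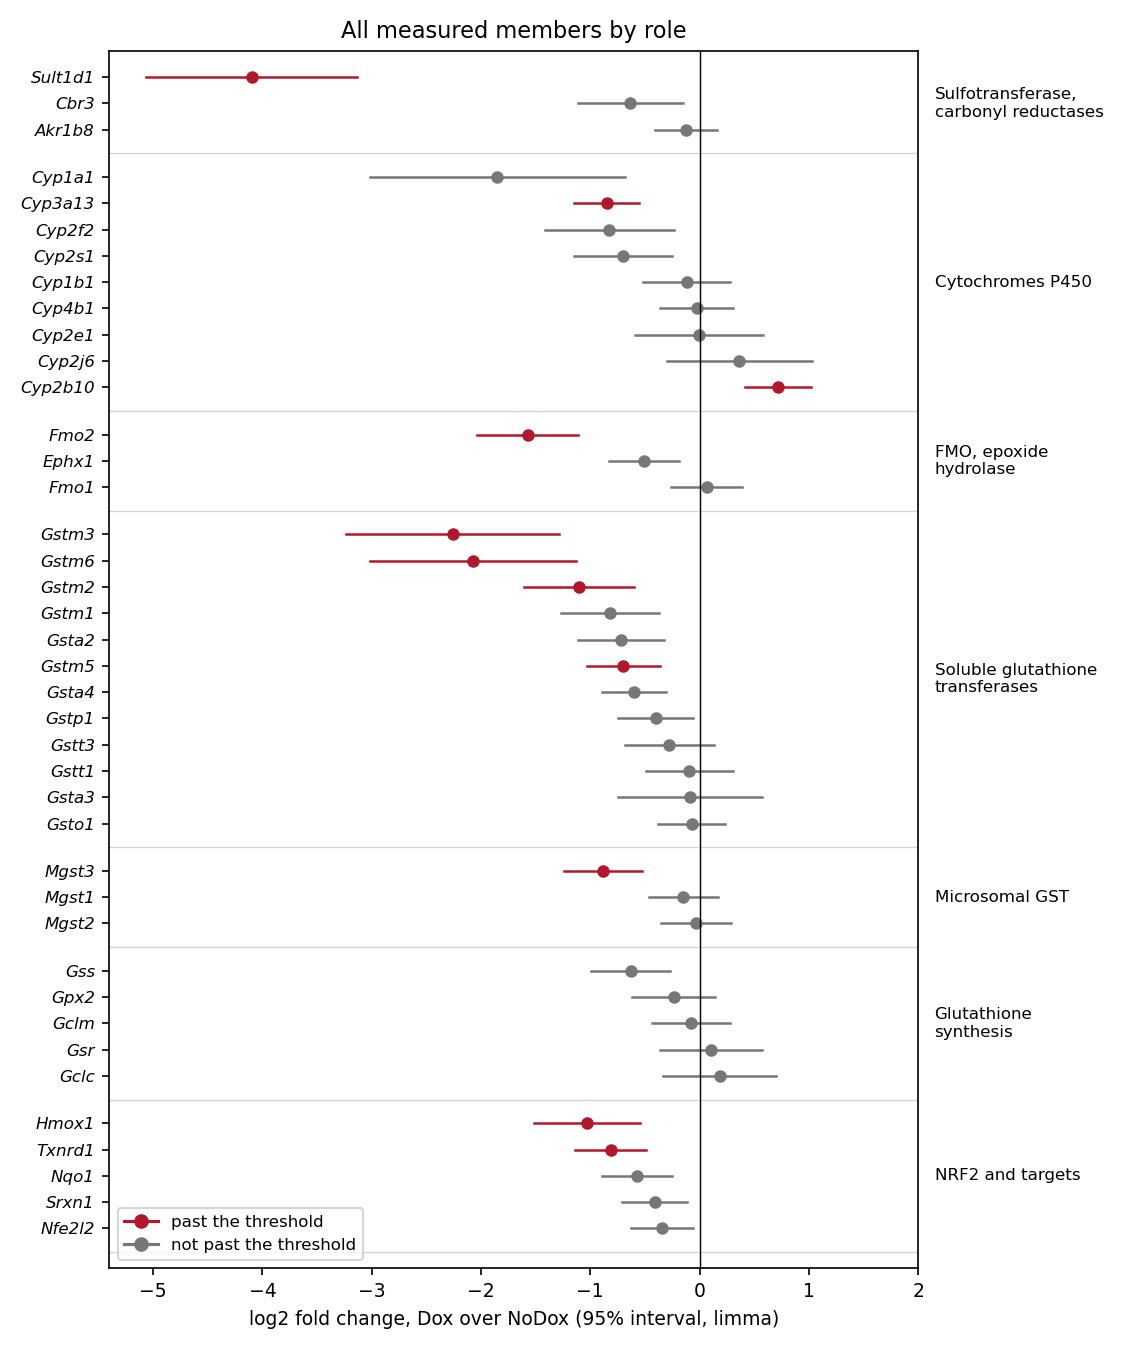
log2 fold change of each of the 40 measured members, Dox over NoDox, with its 95% interval from limma, grouped by role; red marks members past the threshold. 35 of the 40 points lie left of 0 (30 with each array centred on its median), and Cyp2b10 is the 1 red point to its right.

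The calls rest on few arrays and on the variance model. When each array was left out in turn, Sult1d1 was called in all 5 fits, Fmo2 in 3, and Cyp3a13, Txnrd1, Mgst3 and Cyp2b10 in 2 each. Gstm2, Gstm3, Gstm5, Gstm6 and Hmox1 were called in 1, the fit without Dox replicate 2. Over 11 other settings of scaling, offset, signal filter, variance model, probe set and block, Sult1d1 was called in 9, Cyp3a13 and Txnrd1 in 8, Fmo2, Mgst3 and Cyp2b10 in 7 and Gstm3 in 6. Gstm6 was called in 4 of them, Gstm2 and Hmox1 in 3 and Gstm5 in 2. Without either NoDox array Sult1d1 was the 1 member called. With a variance prior that took no account of signal level limma called 0 members and 6 of all genes. In that fit 20 of the 40 members and 2418 of the 18193 genes had an unadjusted p below 0.05. A permutation of 3 against 2 arrays cannot give an exact p below 0.1, so none is given for single genes.

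**Figure D2:**
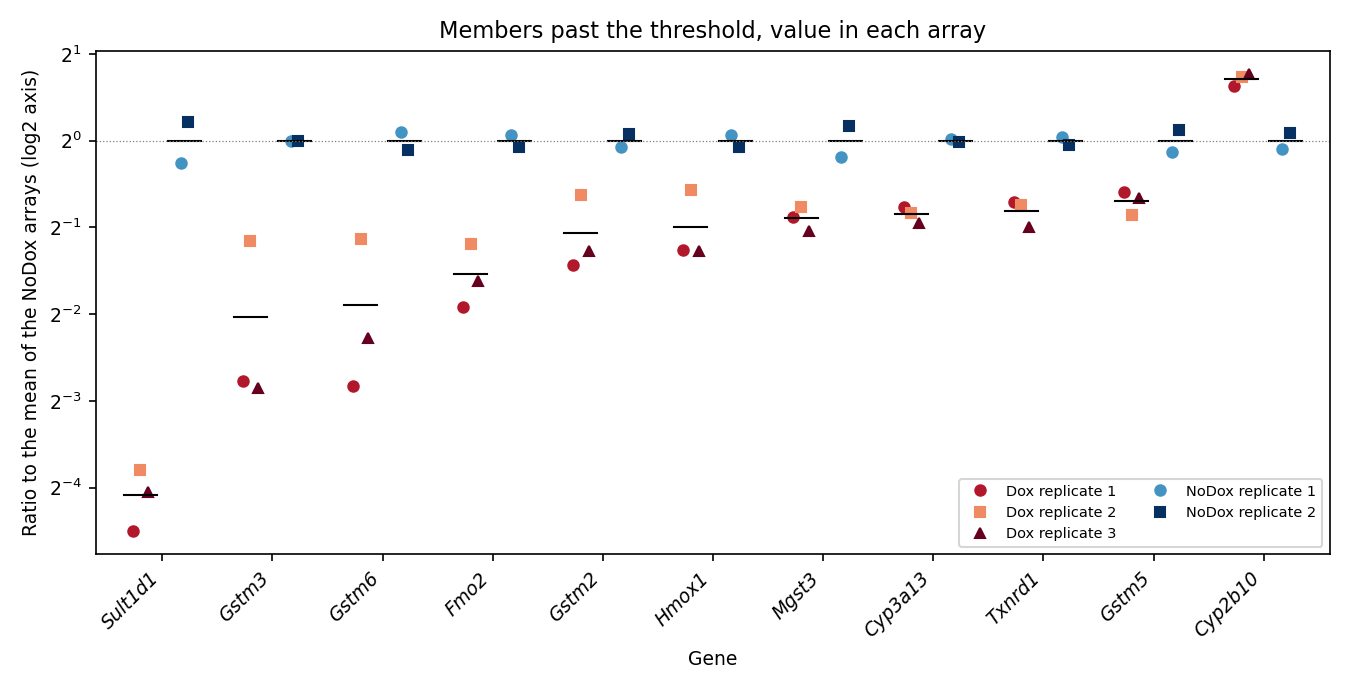
Signal relative to the NoDox mean (ratio, log2 axis) in each of the 5 arrays for the 11 members past the threshold; points are arrays and black bars are group means. In each gene the 3 Dox arrays lie on one side of both NoDox arrays. Dox replicate 2 lies nearest to NoDox in 7 of the 10 lower members, among them Gstm3, Gstm6, Gstm2 and Hmox1.

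Values below are ratios of the signal on an array to the mean signal of the 2 NoDox arrays, so the NoDox values of a gene average 1 and fold changes carry their standard error (SE).

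Sult1d1 encodes a cytosolic sulfotransferase, which moves a sulfate group onto small phenols and amines. It stood at 0.0440, 0.0722 and 0.0601 in Dox arrays 1 to 3, against 0.838 and 1.16 in NoDox arrays 1 and 2. Its log2 fold change was -4.10 ± 0.43 (SE; limma, adjusted p = 0.00186), which is 17.1-fold lower. Every Dox value was far below both NoDox values. A second probe set gave -4.24, with an adjusted p of 0.110 among all probe sets. Adding the median signal of the array as an offset brought the log2 fold change to -2.14, still past the threshold. Papss2, which makes the sulfate donor that sulfotransferases use and is not a member, moved the other way. It stood at 3.20, 1.90 and 3.12 in the Dox arrays against 1.04 and 0.957 in the NoDox arrays, a log2 fold change of 1.42 ± 0.23 (limma, adjusted p = 0.0164). Of the carbonyl-reducing members, the carbonyl reductase gene Cbr3 had a log2 fold change of -0.63 and the aldo-keto reductase gene Akr1b8 one of -0.12. Neither passed the test, with adjusted p of 0.172 and 0.674 by limma, and in both all Dox arrays were below both NoDox arrays.

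Of the 9 measured P450 genes, 1 rose, 1 fell and 7 did not pass. Cyp3a13, a P450 of the subfamily that handles many drugs and steroids, stood at 0.588, 0.559 and 0.518 in the Dox arrays and at 1.01 and 0.990 in the NoDox arrays. Its log2 fold change was -0.85 ± 0.13 (limma, adjusted p = 0.0130). The Dox arrays were close together and well below NoDox. Cyp2b10, known in liver as a target of the nuclear receptor CAR, stood at 1.55, 1.67 and 1.71 in the Dox arrays and at 0.939 and 1.06 in the NoDox arrays. Its log2 fold change was 0.72 ± 0.13 (limma, adjusted p = 0.0284), and the groups did not overlap. Its 3 probe sets all lay above 0, between 0.53 and 0.72 on the log2 scale, but none passed when all probe sets were tested. The probe set used and another are of a type, marked by a suffix of the name, whose probes can match several transcripts. The probe set without that suffix gave the smallest change, 0.53 (limma, adjusted p = 0.155 among all probe sets). Whether the rise is of Cyp2b10 alone is therefore uncertain. Cyp2b10 is also expressed in mouse lung, and 6 of 8 alveolar marker genes, Sftpc, Sftpa1 and Sftpd among them, were higher in the Dox arrays. Their summed signal was 3.98, 2.78 and 6.62 in the Dox arrays and 0.999 and 1.001 in the NoDox arrays, and their part in the Cyp2b10 result was not tested.

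Cyp1a1, the classical target of the aryl hydrocarbon receptor, had the largest change of the P450 genes in size but did not pass the test. It stood at 0.406, 0.276 and 0.183 in the Dox arrays against 0.838 and 1.16 in the NoDox arrays. The log2 fold change was -1.85 ± 0.52 (limma, adjusted p = 0.107), or -0.77 with the median signal as an offset, and the groups did not overlap. Its mean NoDox signal was the lowest among the members, near the 51.3 percentile of all probe sets. Cyp2f2, a club cell P450 that activates naphthalene in mouse lung, had -0.82 (adjusted p = 0.150), and Cyp2s1, a P450 of surface epithelia, had -0.70 (adjusted p = 0.113), both by limma. Cyp1b1, Cyp4b1 and Cyp2e1 lay between -0.12 and -0.01 and Cyp2j6 at 0.36, with overlapping groups in each. Of Cyp1b1, 2 dimmer probe sets gave -0.34 and -1.37, with all Dox arrays below both NoDox arrays, and neither passed the test.

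Fmo2 encodes a flavin-containing monooxygenase that oxidises nitrogen and sulfur atoms and is best known from lung. It stood at 0.265, 0.439 and 0.325 in the Dox arrays and at 1.05 and 0.950 in the NoDox arrays. The log2 fold change was -1.57 ± 0.20 (limma, adjusted p = 0.00580), which is 2.97-fold lower. All Dox values were less than the lower NoDox value by a wide margin. Of its 5 probe sets, 4 passed among all probe sets, with log2 fold changes of -1.57 to -2.16, and the fifth, a dim one, gave -0.19. Its relative Fmo1 stood at 0.07 with overlapping groups. Ephx1, the microsomal epoxide hydrolase, had -0.51 (limma, adjusted p = 0.105), with all Dox arrays below both NoDox arrays.

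All 12 soluble glutathione transferase genes had negative log2 fold changes, except that Gsto1 turned positive under 2 other scalings, Gstt1 under 1 and Gsta3 with another probe set. Their median was -0.65, and 4 of them fell. The 4 were all of the mu class (Gstm), enzymes that join glutathione to epoxides and other electrophiles. Gstm3 stood at 0.147, 0.448 and 0.139 in the Dox arrays against 0.999 and 1.001 in the NoDox arrays. Its log2 fold change was -2.26 ± 0.43 (limma, adjusted p = 0.0309), or 4.78-fold lower. Dox replicate 2 kept more signal than the other Dox arrays but was still far below NoDox.

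Gstm6 stood at 0.140, 0.457 and 0.207 in the Dox arrays and at 1.08 and 0.925 in the NoDox arrays, with a log2 fold change of -2.07 ± 0.42 (limma, adjusted p = 0.0372). Gstm2 stood at 0.371, 0.648 and 0.415 in the Dox arrays and at 0.949 and 1.05 in the NoDox arrays, with -1.11 ± 0.22 (limma, adjusted p = 0.0378). In both, as in Gstm3, Dox replicate 2 was the highest of the Dox arrays. Gstm5 stood at 0.665, 0.552 and 0.631 in the Dox arrays and at 0.913 and 1.09 in the NoDox arrays, with -0.70 ± 0.15 (limma, adjusted p = 0.0455). Here Dox replicate 2 was the lowest, and the groups were again apart. Gstm1, with -0.82, did not pass (limma, adjusted p = 0.0699), and its 4 probe sets lay between -0.71 and -1.18.

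The mu-class genes form a cluster on mouse chromosome 3, with a few other listed genes between them, in the order Gstm5, Gstm7, Gstm6, Gstm3, Gstm2, Gstm1 and Gstm4 in GRCm38.p6. Gstm7 and Gstm4 were not among the members. Gstm7 stood at 1.07, 0.881 and 1.01 in the Dox arrays against 1.12 and 0.881 in the NoDox arrays, a log2 fold change of -0.01 ± 0.30 (limma, adjusted p = 0.989). It is listed between Gstm5 and Gstm6, both of which fell, and its own groups overlapped. Gstm4 had -0.58 ± 0.25 (limma, adjusted p = 0.274), with all Dox arrays below both NoDox arrays. Paralogs of this class are alike in sequence, and the Gstm1 and Gstm3 probe sets used are of the types, marked by a suffix of the probe set name, whose probes can match several transcripts. Which paralog gave their signal is therefore uncertain. The probe sets of both genes without such a suffix gave -2.73 for Gstm3 and -0.71 and -0.86 for Gstm1, all with Dox arrays below both NoDox arrays and none past the threshold among all probe sets.

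**Figure D3:**
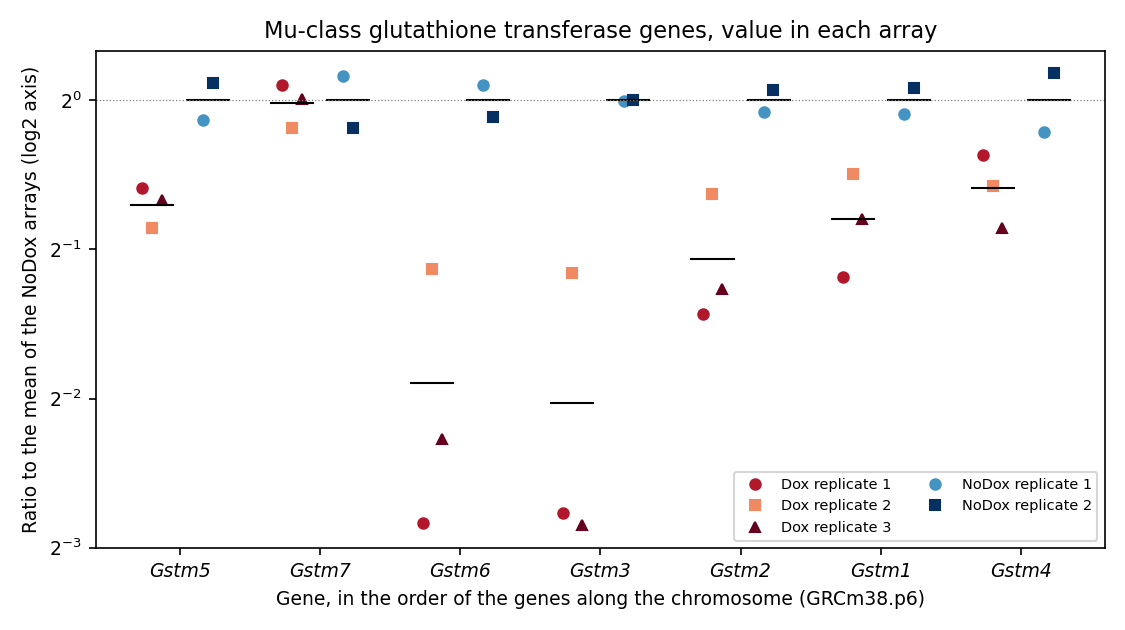
Signal relative to the NoDox mean (ratio, log2 axis) in each array for the 7 mu-class genes, in their order along the chromosome; points are arrays and black bars are group means. Gstm6 and Gstm3 have the lowest Dox values, and in Gstm7 the Dox and NoDox arrays overlap.

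Of the other soluble transferases, the alpha-class Gsta4, which acts on the lipid peroxidation product 4-hydroxynonenal, had -0.60 and an adjusted p just above the threshold (limma, 0.0508). The alpha-class Gsta2 had -0.72 (limma, adjusted p = 0.0693) and the pi-class Gstp1 had -0.40 (limma, adjusted p = 0.212), with groups apart in all 3. Gstt3 of the theta class had -0.28, also with groups apart. Gstt1, Gsta3 and the omega-class Gsto1 lay between -0.09 and -0.07 with overlapping groups.

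The 3 microsomal transferases are membrane enzymes, and of these Mgst3 fell. It stood at 0.544, 0.587 and 0.486 in the Dox arrays and at 0.876 and 1.12 in the NoDox arrays. The log2 fold change was -0.89 ± 0.16 (limma, adjusted p = 0.0238), and the groups did not overlap. Mgst1 and Mgst2 stood at -0.15 and -0.03, with overlapping groups. The interval for Mgst1 was -0.47 to 0.17 and that for Mgst2 was -0.35 to 0.29.

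The genes that make and recycle glutathione did not pass limma's test, with 0 of 5 called in either direction and 1 with an unadjusted p below 0.05. Gclc and Gclm, the catalytic and modifier subunits of glutamate-cysteine ligase, had log2 fold changes of 0.18 (95% interval -0.33 to 0.70) and -0.08 (-0.43 to 0.28). Gsr, glutathione reductase, had 0.10 (-0.36 to 0.57), and Gpx2, the glutathione peroxidase of the gut lining, had -0.24 (-0.62 to 0.14). The groups overlapped in all 4. Gss, glutathione synthetase, had the smallest p of the 5. It stood at 0.618, 0.755 and 0.580 in the Dox arrays against 0.994 and 1.01 in the NoDox arrays, with -0.63 ± 0.16 (limma, adjusted p = 0.0813), and its groups were apart. Its other probe set gave -0.17.

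Nfe2l2 and the 4 listed redox targets of NRF2 all had their Dox arrays below both NoDox arrays, and 2 of the 5 fell. Txnrd1, the cytosolic thioredoxin reductase, stood at 0.612, 0.599 and 0.500 in the Dox arrays against 1.03 and 0.969 in the NoDox arrays. Its log2 fold change was -0.81 ± 0.14 (limma, adjusted p = 0.0218). Its other 2 probe sets, both dimmer, gave -1.03 and -1.50 without passing.

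Hmox1, heme oxygenase 1, which breaks heme down to biliverdin, iron and carbon monoxide, stood at 0.416, 0.673 and 0.415 in the Dox arrays and at 1.05 and 0.951 in the NoDox arrays. Its log2 fold change was -1.03 ± 0.21 (limma, adjusted p = 0.0428). Dox replicate 2 was again the highest Dox array, and still below NoDox. The quinone reductase gene Nqo1 had -0.57 (limma, adjusted p = 0.0777), the sulfiredoxin gene Srxn1 -0.41 (adjusted p = 0.152) and Nfe2l2 itself -0.34 (adjusted p = 0.204). A dimmer Nfe2l2 probe set stood at 0.26.

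Several members have more than 1 probe set. For 16 of these 18 members all probe sets had the same sign, and Nfe2l2 and Gsta3 were the exceptions. Over all 68 member probe sets, 9 were lower and 0 higher when every probe set was tested (0.504% and 0.588% of all probe sets), and the 9 came from 6 genes. By limma 37 had an unadjusted p below 0.05, as did 6331 of all 45037 probe sets tested. 56 of the 68 had negative log2 fold changes, against 57.5% of all genes. The probe set standing for a gene was the one with the highest mean signal. For the brightest probe sets only a lower bound of the signal is known, and among these the choice leans to the one with higher ratios, as in Fmo2.

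**Figure D4:**
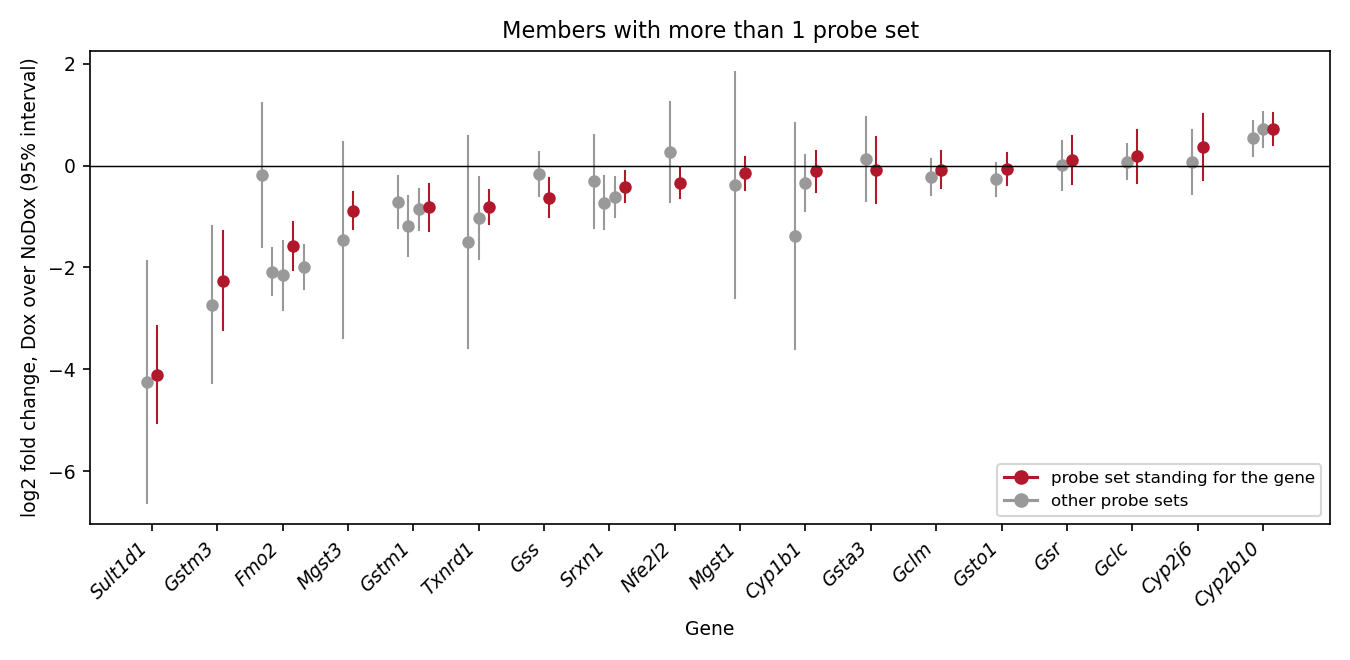
log2 fold change, Dox over NoDox, with its 95% interval from limma for every probe set of the 18 members with more than 1; red marks the probe set standing for the gene. The Fmo2 probe sets lie between -2.16 and -0.19, and the 3 of Cyp2b10 lie above 0.

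The Dox arrays were not alike. Dox replicate 2 was the highest Dox array in 7 of the 10 lower members, against 109 of all 212 lower genes (51.4%). The median log2 ratio over the members was -0.54, -0.32 and -0.52 in Dox arrays 1 to 3, against -0.06, -0.08 and -0.10 over all genes. Without Dox replicate 2, limma called 18 members lower in place of 10, and 469 genes lower in place of 212. Without Dox replicate 3 it called 2 members lower.

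Markers of tissue composition also differed between the groups. The esophageal keratins Krt4, Krt5, Krt13 and Krt14 were bright, with log2 fold changes of -0.03, 0.02, -0.10 and 0.48. These did not pass limma's test. The groups overlapped in Krt4, Krt5 and Krt13, and in Krt14 all Dox arrays were above both NoDox arrays. The summed signal of 15 squamous markers was 0.856, 0.931 and 0.805 in the Dox arrays against 0.957 and 1.04 in the NoDox arrays. 1 of the 15, Dsg1a, passed, as lower. Where only a lower bound of a signal is known, that bound enters the sums of all marker lists. The signal itself was recovered for 1 of the 15 squamous and 1 of the 14 skeletal muscle markers. The skeletal muscle sum was 0.662, 0.544 and 0.619 in the Dox arrays against 1.004 and 0.996 in the NoDox arrays. Of its 14 markers 4 were lower, those of smallest p being Myh7, Tnnc1 and Myh4. In 9 of the 14 all Dox arrays were below both NoDox arrays. In the other 5, Acta1, Ckm, Myh1, Myl1 and Tnni2, the groups overlapped and log2 fold changes lay between -0.16 and -0.07. The sum thus does not describe all muscle markers alike. The macrophage sum was 1.84, 1.59 and 1.79 in the Dox arrays against 0.954 and 1.05 in the NoDox arrays, with 4 of 10 markers higher, those of smallest p being Cd68, Tyrobp and Csf1r.

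Adipocyte markers summed to 0.715, 0.900 and 0.713 in the Dox arrays and 0.914 and 1.09 in the NoDox arrays, with 0 of 6 past limma's threshold and 3 with an unadjusted p below 0.05. Smooth muscle markers summed to 0.703, 0.788 and 0.704 in the Dox arrays and 0.894 and 1.11 in the NoDox arrays, with 0 of 8 past it and 4 with an unadjusted p below 0.05. Airway club and ciliated markers summed to 0.773, 0.941 and 1.47 in the Dox arrays and 0.951 and 1.05 in the NoDox arrays. Of these 8 markers 1, Tppp3, was lower, and 3 had an unadjusted p below 0.05 by limma. Log2 fold changes were positive in 5 and negative in 3. Scgb1a1 stood at 1.37, 1.46 and 2.56 in the Dox arrays and 1.05 and 0.949 in the NoDox arrays (limma, adjusted p = 0.148). Hepatocyte markers summed to 0.380, 0.292 and 0.317 in the Dox arrays and 0.547 and 1.45 in the NoDox arrays, with 0 of 6 past it and 2 with an unadjusted p below 0.05. Of 6 endothelial markers 1, Plvap, was higher. Of 8 fibroblast, 9 stomach and mucous gland and 3 thyroid markers 0 passed limma's test, and 1, 1 and 0 had an unadjusted p below 0.05. The part of these lists in the members' results was not tested. The Il13 probe set was near the 11.1 percentile of mean NoDox signal. It stood at 0.305, 0.877 and 0.678 in the Dox arrays and 1.15 and 0.853 in the NoDox arrays (limma, adjusted p = 0.708). It was not higher in the Dox arrays, so these values show no induction of Il13 RNA in esophagus, and whether the probe set detects transgene RNA is not known here.

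Promoter sequences from 250 bases before to 50 bases after the start were taken from RefSeq (GRCm38.p6) for 36 of the 41 members. 4 short motifs were searched on both strands, and the share of all genes with each motif is given below. Shown are promoters of 5 lower members. They are Sult1d1, as the member of largest change, Gstm5, Gstm6 and Gstm3, as neighbours that fell, and Txnrd1, as a lower NRF2 target. Where the table holds several promoters of a gene, that with most TGACNNNGC matches is shown, or the furthest upstream if none matched. TGACNNNGC is the core of the antioxidant response element, GCGTG that of the xenobiotic response element, and the STAT palindromes searched are TTC and GAA with 3 bases (TTCNNNGAA) or 4 bases of any kind between them. Each line gives a promoter 5′ to 3′ on the strand of its gene, with the bases of every match in capitals.
Sult1d1, chr5:87568957-87569256, minus strand: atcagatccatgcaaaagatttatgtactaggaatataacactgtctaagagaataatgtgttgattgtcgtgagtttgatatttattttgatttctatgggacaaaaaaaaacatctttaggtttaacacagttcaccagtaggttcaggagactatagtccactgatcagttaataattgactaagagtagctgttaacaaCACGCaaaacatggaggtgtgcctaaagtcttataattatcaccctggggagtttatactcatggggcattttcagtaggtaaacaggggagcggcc
Gstm5, chr3:107895604-107895903, plus strand: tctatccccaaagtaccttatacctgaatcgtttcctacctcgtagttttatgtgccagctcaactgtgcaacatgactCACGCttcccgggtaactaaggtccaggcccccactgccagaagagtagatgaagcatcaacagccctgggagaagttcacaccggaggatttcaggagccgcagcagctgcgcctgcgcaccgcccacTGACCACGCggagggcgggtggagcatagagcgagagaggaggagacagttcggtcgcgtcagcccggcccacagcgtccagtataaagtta
Gstm6, chr3:107953417-107953716, minus strand: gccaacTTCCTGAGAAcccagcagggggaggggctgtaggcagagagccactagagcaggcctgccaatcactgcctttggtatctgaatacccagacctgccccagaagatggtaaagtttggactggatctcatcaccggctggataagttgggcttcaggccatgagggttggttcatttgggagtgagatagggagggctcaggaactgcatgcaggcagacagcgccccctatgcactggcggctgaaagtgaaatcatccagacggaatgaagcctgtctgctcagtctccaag
Gstm3, chr3:107969125-107969424, minus strand: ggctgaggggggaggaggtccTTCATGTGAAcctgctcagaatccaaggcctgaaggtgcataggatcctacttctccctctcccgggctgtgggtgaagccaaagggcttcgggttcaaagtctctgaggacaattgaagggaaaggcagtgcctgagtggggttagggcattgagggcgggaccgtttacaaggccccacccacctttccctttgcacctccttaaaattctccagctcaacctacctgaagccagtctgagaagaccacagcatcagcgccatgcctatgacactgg
Txnrd1, chr10:82858956-82859255, plus strand: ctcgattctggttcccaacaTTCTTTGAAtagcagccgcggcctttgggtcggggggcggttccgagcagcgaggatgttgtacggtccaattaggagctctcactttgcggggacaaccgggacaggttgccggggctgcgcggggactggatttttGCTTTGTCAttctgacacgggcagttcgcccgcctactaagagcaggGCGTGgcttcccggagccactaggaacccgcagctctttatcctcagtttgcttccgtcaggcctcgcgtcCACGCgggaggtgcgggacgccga

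In the Gstm5 promoter a TGACNNNGC match overlapped a GCGTG match in the run TGACCACGC, and a second GCGTG match lay upstream. The Txnrd1 promoter shown, picked for its TGACNNNGC match, held that match on the opposite strand, 2 GCGTG matches and 1 TTCNNNGAA match. The Gstm6 and Gstm3 promoters shown each held 1 STAT palindrome with a spacer of 4 far upstream in the window, and that of Sult1d1 held 1 GCGTG match. Txnrd1 and Gstm6 have other promoters in the table, and these held further matches but no TGACNNNGC.

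Counting a gene if any of its promoters held a match, TGACNNNGC was found in 8 of the 36 members (22.2%), against 14% of all genes with a promoter in the table, and in 2 of 9 lower members. GCGTG was found in 15 members (41.7%), against 35.2% of genes, and in 4 of the 9. The STAT palindrome with a spacer of 4 was found in 3 members (8.33%), against 8.01% of genes, and in 2 of the 9. TTCNNNGAA was found in 6 members (16.7%), against 9.55% of genes, and in 3 of the 9. Counted over all 32851 promoters, the shares were 12.4%, 32.4%, 6.95% and 8.30% in the same order. A match describes letters in the window and shows no binding.

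Other genes of the same pathways were read from lists of 211 genes, of which 181 were measured. 4 were higher, 3 were lower, and the median log2 fold change was -0.09. Among 55 other conjugating and functionalizing enzymes, Papss2 and Xdh rose and Ces1g fell, with a median of -0.26. Xdh, xanthine dehydrogenase, had 0.73 (limma, adjusted p = 0.0342). Ces1g, a carboxylesterase, stood at 0.223, 0.395 and 0.330 in the Dox arrays and at 1.004 and 0.996 in the NoDox arrays, a log2 fold change of -1.70 ± 0.34 (limma, adjusted p = 0.0368), or -1.02 with the median signal as an offset.

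Among 41 other NRF2 pathway and antioxidant genes, 33 had negative log2 fold changes (80.5%, against 57.5% of all genes), with a median of -0.12. In 13 all Dox arrays were below both NoDox arrays (31.7%, against 21.8% of all genes), and in 3 all were above. Of the 41 genes 1 passed, and it was higher. This was Txn1, thioredoxin, the substrate of the enzyme that Txnrd1 encodes. Txn1 stood at 1.74, 1.53 and 1.67 in the Dox arrays against 0.944 and 1.06 in the NoDox arrays, with 0.72 ± 0.13 (limma, adjusted p = 0.0281), while Txnrd1 fell in the same arrays. Another Txn1 probe set gave 1.21.

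Among 36 other glutathione genes, Chac2, a glutathione-degrading cyclotransferase, and Gpx8, a peroxidase of the endoplasmic reticulum, were lower, with -0.71 (limma, adjusted p = 0.0409) and -0.66 (limma, adjusted p = 0.0493). Of the 11 other settings Chac2 was called in 3 and Gpx8 in 0, and each was called in 1 of the 5 fits that left out an array. The median of that list was -0.01. Among 36 other P450 genes and partners 1 passed, Cyp2c39, and the median was 0.03. Cyp2c39 stood at 17.1, 14.0 and 9.83 in the Dox arrays against 1.26 and 0.738 in the NoDox arrays, with 3.78 ± 0.70 (limma, adjusted p = 0.0277). Its mean NoDox signal was at the 3.33 percentile of all probe sets. With the median signal as an offset the log2 fold change was 0.68 (limma, adjusted p = 0.0540). Among 13 xenobiotic receptors and their partners 0 passed in either direction and 1 had an unadjusted p below 0.05. The aryl hydrocarbon receptor gene Ahr stood at -0.19, with all Dox arrays below both NoDox arrays.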

How the data were processed

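RNA from mouse esophagus (3 Dox and 2 NoDox arrays) was measured on the Affymetrix Mouse Genome 430 2.0 platform. The authors computed signals with MAS 5.0 at default settings and normalized them in GeneSpring 7.3.1, per the labels. The deposited values are linear ratios per probe set. In 45099 of 45101 probe sets the 2 NoDox values sum to 2 within 0.0001, so the reference is their mean, and detection calls are not used here. Signal levels, up to a common factor, were recovered from the whole-number steps of the ratios for 40711 probe sets (90.3%). Others, among them the brightest, have a lower bound, as do 21 of the 40 members. Shuffled arrays gave a solution in 0.575% of cases.

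From the ratios, log2 values were fitted with limma 3.58.1 (R 4.3.3; lmFit, then eBayes with a variance trend on the mean log2 signal over the 5 arrays), Dox against NoDox, with no block. The fit had 3 residual degrees of freedom and a prior of 6.00. Probe sets with 1 symbol in the platform annotation numbered 34945, those with several 932 and those with none 9160. 64 control probe sets were left out. Each gene was read from its probe set of highest mean signal, adjusted by Benjamini-Hochberg over 18193 genes at 0.05. The fit was tested on simulated data. The number of arrays limits precision.

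Members and lists were chosen with earlier results of these data known. Values in every array are given for members past the threshold, those changed by a log2 of at least 1 and the smallest p of each role. Titles number 1 and 2 in both groups. The deviations of same-numbered arrays correlated at 0.031 and 0.052 over probe sets, and nothing in the labels ties the numbers to a shared animal or day, so they were not treated as pairs. Alternatives changed the scaling, offset, level filter, variance model, probe set, block and arrays. Quantile normalization of the recovered signals was added after seeing the data. Figures were drawn with matplotlib 3.10.9.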

Additional observations from a re-analysis of the deposited data

How the results depend on the processing

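In all alternatives run, the 11 members past the threshold kept their direction. The count of lower members was 10 as reported, 7 with each array centred on its median, 8 with the probe set of highest mean ratio and 11 with a filter on low signal. It was 6 with the small offset, 5 with the larger offset, 6 with every probe set tested (and 0 higher), 4 with quantile normalization of signals, and 1 with quantile normalization of the ratios (and 0 higher). It was 0, with 0 higher, both without a variance trend and with a trend on the mean ratio. There 20 and 19 members had an unadjusted p below 0.05 by limma, as did 2418 and 2365 of all genes. Requiring 2-fold left 6 lower and 0 higher. Both offsets were added only where the signal level was recovered, so the fold changes of the 21 members with a lower bound stayed the same. Leaving out each array gave 1 to 18 lower and 0 to 1 higher members. For the other pathway genes, 4 higher and 3 lower as reported, these fits gave 0 to 5 higher and 0 to 10 lower. The same list had 0 and 0 without a trend, with a trend on the ratio and with quantile normalization of the ratios. It had 2 higher with every probe set, 2 higher and 1 lower at 2-fold, and 1 lower with either offset, with median centring and with quantile normalization of signals. Over all genes, 246 higher and 212 lower became 292 and 146 with median centring, 317 and 118 with quantile normalization of signals, 58 and 12 with that of ratios, 6 and 0 without a trend, and 0 and 0 with a trend on the ratio (2365 genes at an unadjusted p below 0.05). The share of higher calls was 53.7% as reported, 66.7% with median centring and 72.9% with quantile normalization of signals. Leaving out each array gave 49 to 372 higher and 9 to 469 lower genes, and the probe set of highest mean ratio gave 254 and 117. Except where named, the cause was not tested.

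The replicate block, which takes the number 1 or 2 of the titles as a block, gave 1 higher and 15 lower members, 7 higher and 7 lower other pathway genes, and 355 higher and 457 lower of all genes. It leaves Dox replicate 3 in a block of its own and so rests on 4 arrays. Under it Gclc had a log2 fold change of -0.034 and Gsr of -0.036, both turned in sign.

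Every other reversal was of a member that did not pass the test. With the probe set of highest mean ratio, Nfe2l2 stood at 0.26 and Gsta3 at 0.13. With median centring, Cyp4b1 stood at 0.055, Cyp2e1 at 0.075, Gclm at 0.0043, Mgst2 at 0.053 and Gsto1 at 0.0097. With quantile normalization of signals, Cyp4b1 stood at 0.086, Cyp2e1 at 0.10, Gclm at 0.074, Mgst1 at 0.0043, Mgst2 at 0.094, Gsto1 at 0.034 and Gstt1 at 0.053, and with that of ratios Cyp4b1 at 0.040, Cyp2e1 at 0.038 and Mgst2 at 0.030. Leaving out each array gave -0.30 to 0.067 for Cyp1b1, -0.11 to 0.052 for Cyp4b1, -0.40 to 0.39 for Cyp2e1, -0.0085 to 0.13 for Fmo1, -0.034 to 0.40 for Gclc, -0.036 to 0.28 for Gsr, -0.17 to 0.038 for Gclm, -0.10 to 0.059 for Mgst2, -0.34 to 0.15 for Gstt1 and -0.56 to 0.38 for Gsta3.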
